A study of Mus musculus with 4 samples.

Results

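Genes of the Notch pathway, 10 in number, were followed in lineage-negative bone marrow of mice with and without Mtg16. They are the receptors Notch1, Notch2 and Notch3, the nuclear factors Rbpj and Maml1, and the genes Hes1, Hes5, Hey1, Nrarp and Dtx1, which Notch signalling switches on. They were chosen by symbol: all 10 had a probe with a single gene symbol, each had exactly 1 such probe, and they are 10 of the 13840 genes named in this way on the array. Mtg16 (symbol Cbfa2t3) encodes a transcriptional corepressor of the ETO family.

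Wild type and Mtg16 null mice gave 2 arrays each, and both of the 2 array lots held 1 array per genotype. Wild type mice were of the C57BL/6 strain. Mtg16 null mice had been backcrossed into that strain to generation 4 (N4), so what remains of the other strain, which the labels do not name, is not controlled for. All mice were females aged 8 to 12 weeks, no treatment is named, and the marrow of 4 mice was pooled for each RNA before cells bearing mature lineage markers were depleted on columns. The labels do not say whether the 2 arrays of a genotype came from separate pools, so p-values measure only the spread between these arrays, which may be technical. With 2 arrays against 2, an exact permutation test of a single gene cannot go below a two-sided p of 0.333, and the tests given are those of limma fitted across all genes.

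Notch receptors are membrane proteins that are cut when a Delta or Jagged ligand on a neighbouring cell binds them. The freed intracellular part enters the nucleus, joins the DNA-binding protein RBPJ and the coactivator MAML1, and turns on genes such as the HES and HEY repressors. Without that signal RBPJ holds the same genes down with corepressors, and ETO family proteins have been reported to bind RBPJ. In blood formation Notch signalling is best known for directing progenitors to the T cell lineage, through Notch1, and for the marginal zone B cell, through Notch2.

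The promoters of 4 genes with a difference described below are shown because RBPJ reads a short DNA word, TGGGAA, with GTGGGAA as its fuller form. Each sequence is the 250 bases before the RefSeq transcription start on build GRCm38.p6, written 5′ to 3′ on the gene's strand, and capitals mark TGGGAA or its reverse complement. The table of promoters held windows for 8 of the 10 genes, and Hes1 and Hey1 were not among them. The Hes5 window is chr4:154960673-154960922 on the plus strand, that of Rbpj (the first of its 2 listed starts) chr5:53590096-53590345 on the plus strand, that of Notch2 chr3:98013288-98013537 on the plus strand, and that of Notch3 chr17:32166891-32167140 on the minus strand.
Hes5: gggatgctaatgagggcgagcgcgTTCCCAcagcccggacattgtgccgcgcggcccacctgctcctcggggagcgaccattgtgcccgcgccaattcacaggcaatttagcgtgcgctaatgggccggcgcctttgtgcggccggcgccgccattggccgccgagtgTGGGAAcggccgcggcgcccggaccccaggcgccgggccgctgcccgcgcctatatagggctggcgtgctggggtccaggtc
Rbpj: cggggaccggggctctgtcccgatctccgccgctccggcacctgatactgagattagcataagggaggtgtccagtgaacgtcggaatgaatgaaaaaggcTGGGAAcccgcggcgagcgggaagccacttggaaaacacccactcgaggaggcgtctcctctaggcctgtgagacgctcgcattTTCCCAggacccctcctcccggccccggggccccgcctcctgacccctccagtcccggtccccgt
Notch2: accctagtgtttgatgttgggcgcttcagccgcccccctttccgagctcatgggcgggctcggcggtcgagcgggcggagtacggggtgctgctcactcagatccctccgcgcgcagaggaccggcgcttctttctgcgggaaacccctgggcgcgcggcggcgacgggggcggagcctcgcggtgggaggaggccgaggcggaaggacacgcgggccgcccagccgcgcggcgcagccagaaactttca
Notch3: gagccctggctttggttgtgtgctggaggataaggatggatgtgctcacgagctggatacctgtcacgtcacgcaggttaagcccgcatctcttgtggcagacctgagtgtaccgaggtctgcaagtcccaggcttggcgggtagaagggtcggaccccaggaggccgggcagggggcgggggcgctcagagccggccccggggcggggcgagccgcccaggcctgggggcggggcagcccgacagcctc

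The Hes5 window holds TGGGAA 2 times, 82 to 77 bases before the start on the plus strand and 226 to 221 bases before it on the minus strand, and both are part of the longer word GTGGGAA. Of all 32851 promoter windows in the table (some genes have several), 21.6% hold TGGGAA on either strand and 0.161% hold GTGGGAA 2 or more times. The Rbpj window shown also holds TGGGAA 2 times and GTGGGAA 0 times, and 2.77% of all windows hold TGGGAA 2 or more times. The window of the other Rbpj start holds TGGGAA 1 time. The windows of Notch1, Notch2, Notch3, Nrarp, Dtx1 and Maml1 hold TGGGAA 0 times. The E-box CANNTG, the word read by the E proteins with which Mtg16 is known to associate, occurs in 66.2% of all windows. It occurs 1 time in the windows of Hes5 and Nrarp, 2 times in the Rbpj window shown and 0 times in the other. These matches describe the letters of the windows only.

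Each array gave 33012 probe signals with a common median of 470 signal units, because the deposited values had been brought to 1 distribution. The probe of the targeted gene Cbfa2t3 read 80854 and 100256 units in wild type and 95520 and 118572 in the null arrays. Where this probe lies with respect to the deletion is not given in the sources used here, so it checks nothing and every direction below rests on the labels. Probes of the Y-linked genes Uty, Kdm5d and Eif2s3y, which female mice lack, read 94.5 to 310 units, and that range serves below as background. Whether these probes also bind other transcripts was not tested. The progenitor genes Kit and Gata2 read 34022 to 47408 and 36097 to 38196 units over the 4 arrays, while the T cell genes Cd3e and Cd4 read 120 to 325 and 120 to 223 units. Other markers of T cells read above background on every array, among them Cd5 at 3095 to 4646 and Cd3g at 489 to 739 units.

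Of the 10 genes, Notch3, Hes1 and Hes5 read at least 0.5 higher on the log2 scale in the null arrays of both lots, and Notch2 read at least that much lower. Among all 13840 genes 9.42% were higher and 7.66% lower by the same measure, 17.1% in all, against these 3 and 1 of 10. The median log2 difference was 0.17 over the 10 genes and -0.01 over all genes. The sign differed between lots for Notch1, Maml1, Hey1 and Dtx1, 4 of 10, where 36.3% of all genes did so. By limma 0 of the 10 passed an adjusted p of 0.05. Only Hes1, Hes5, Rbpj, Nrarp and Maml1 were among the 8445 genes of the brighter 50% of probes, of which 0.118% passed. The other 5 were read from a fit to all 13840 genes, in which 0 genes passed. In that fit 3 of the 10 had an unadjusted p under 0.05 with a higher null level and 1 with a lower one, against 6.24% and 4.69% of all genes.

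**Figure D1:**
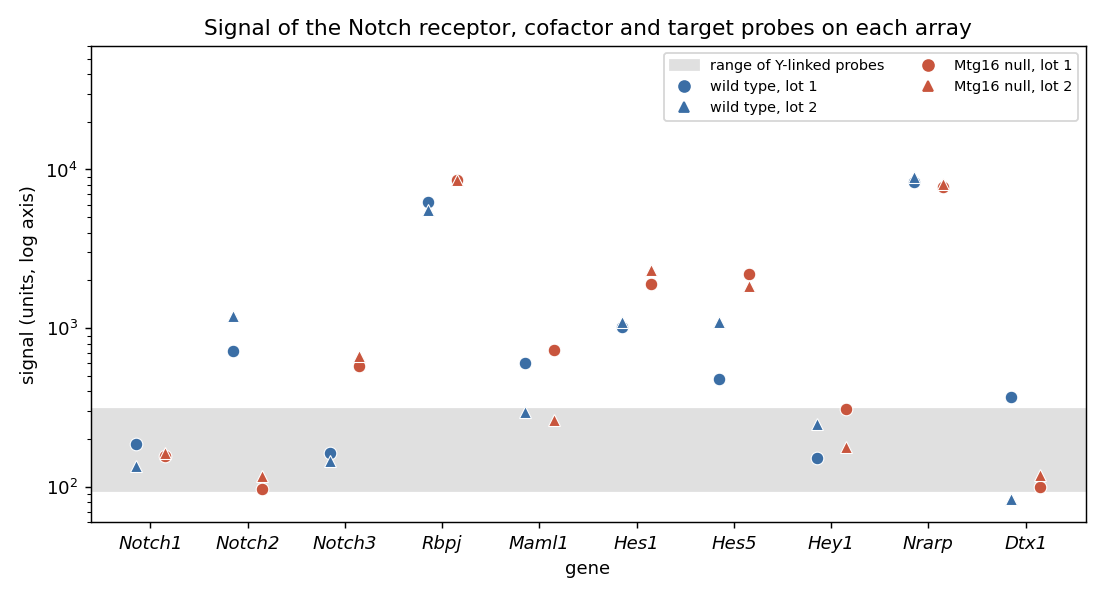
Signal of each gene (x axis) in signal units on a log axis (y axis), with 1 point per array: blue wild type, red Mtg16 null, circles lot 1, triangles lot 2. The grey band spans the Y-linked probes, 94.5 to 310 units. Notch2 enters it only in the null arrays, Notch3 only in the wild type arrays and Maml1 only in lot 2.

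Among the receptors, Notch2 and Notch3 differed in opposite directions. Notch2, the receptor of marginal zone B cells that is also expressed in myeloid cells, read 715 and 1186 units in wild type and 96.6 and 117 in the null arrays. Both null signals lay in the range of the Y-linked probes and both wild type signals above it, with no overlap. The log2 difference, null minus wild type, was -3.11 (SE 0.35; -2.89 in lot 1 and -3.34 in lot 2). Its unadjusted p was 7.94e-04 and its adjusted p 0.26 by limma, and it passed with a variance trend (adjusted p = 0.0482) but under no other setting. Since the null level is not resolved from background, neither is the size: with all signals raised to at least 310 units the difference was -1.57.

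Notch3, a receptor best known from the mural cells of vessels and from T cell precursors, read 164 and 147 units in wild type and 577 and 671 in the null arrays. Here the wild type arrays lay in the background range and the null arrays above it. The log2 differences were 1.81 in lot 1 and 2.20 in lot 2 (SE of the fit 0.24). Its limma adjusted p was 0.26 and its unadjusted p 9.92e-04. Since the wild type level is not resolved from background, neither is the size, and the difference was 1.01 with signals raised to at least 310 units. Notch1, the receptor that drives T cell commitment, read 187 and 135 units in wild type and 157 and 165 in the null arrays. All 4 signals were within the background range, as were those of 17.7% of all genes, so the array gave no measurable Notch1 level in either genotype and the difference of 0.02 (SE 0.28) describes background.

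Of the nuclear factors, Rbpj, the DNA-binding partner of the cut receptors, read 6234 and 5565 units in wild type and 8644 and 8582 in the null arrays. The groups did not overlap, and the null arrays were 1.39-fold higher in lot 1 and 1.54-fold higher in lot 2. The log2 difference was 0.55 (SE 0.17, 95% interval 0.07 to 1.03, limma adjusted p = 0.262). RefSeq lists 3 pseudogenes named after Rbpj, and whether the probe also binds their transcripts was not tested. Maml1, the coactivator that completes the complex, read 602 and 296 units in wild type and 728 and 265 in the null arrays. It was high on both arrays of lot 1 and low on both of lot 2, so its signal followed the lot. Both lot 2 signals lay in the background range, so that lot gave no measurable Maml1 level. The log2 difference between genotypes was 0.06, with an SE of 0.64 in the fit without the lot and 0.17 with the lot as a block, and a 95% interval of -1.71 to 1.82 without it.

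**Figure D2:**
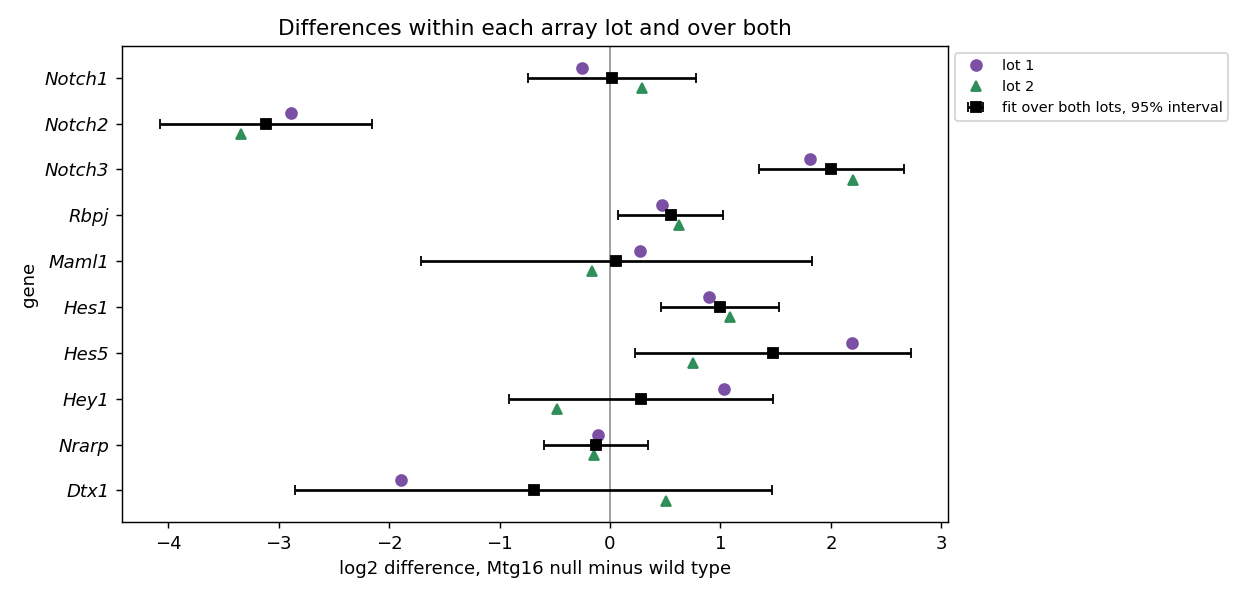
Log2 difference, Mtg16 null minus wild type (x axis), of each gene (y axis). Black squares with bars are the limma estimate and its unadjusted 95% interval over all 4 arrays, purple circles lot 1 and green triangles lot 2; Hes1 and Notch3 gave close values in both lots, while those of Dtx1 and Hey1 lay on either side of 0.

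Of the 5 targets, Hes1, Hes5 and Nrarp read above background on every array, and Hey1 and Dtx1 lay near it. Hes1, the repressor most widely used as a readout of Notch signalling, read 1019 and 1090 units in wild type and 1903 and 2320 in the null arrays. Both null arrays were above both wild type arrays, 1.87-fold in lot 1 and 2.13-fold in lot 2. The log2 difference was 1.00 (SE 0.20, 95% interval 0.46 to 1.53), with a limma adjusted p of 0.13 and an unadjusted p of 0.00652. It lay between 0.85 and 1.14 with any 1 array left out.

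Hes5, another repressor of the family and the gene with 2 GTGGGAA words in its promoter window, read 482 and 1097 units in wild type and 2205 and 1850 in the null arrays. The groups did not overlap, but the 2 wild type arrays were further apart than the 2 null arrays. The difference was 4.57-fold in lot 1 and 1.69-fold in lot 2, or 1.47 on the log2 scale over both (SE 0.45, limma adjusted p = 0.254). Leaving out wild type array 1 gave 0.88, and leaving out wild type array 2 gave 2.07. The null means of Hes1 and Hes5 were 2111 ± 295 and 2028 ± 251 units, against 1054 ± 49.7 and 789 ± 434 in wild type (SD, n = 2).

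Nrarp, an ankyrin repeat protein that feeds back on the receptor complex and is itself a direct target, read 8349 and 9003 units in wild type and 7738 and 8119 in the null arrays. These levels were far above background on every array and differed by -0.11 in lot 1 and -0.15 in lot 2. The log2 difference was -0.13 (SE 0.17, 95% interval -0.60 to 0.34, limma adjusted p = 0.798). That interval overlaps the 0.23 to 2.72 of Hes5 and lies below the 0.46 to 1.53 of Hes1, and the difference between these genes was not tested.

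Hey1, a repressor related to Hes1, read 152 and 250 units in wild type and 311 and 179 in the null arrays. Its highest signal barely passed the background range, and the groups overlapped, with differences of 1.04 in lot 1 and -0.48 in lot 2. Dtx1, a ubiquitin ligase that acts on Notch, read 370 and 84.0 units in wild type and 99.8 and 120 in the null arrays. Wild type array 1 alone lay above background: the log2 difference was -0.69 (SE 0.78) with it and 0.38 without it. For both genes the level was too close to background for a genotype difference to be measured.

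**Figure D3:**
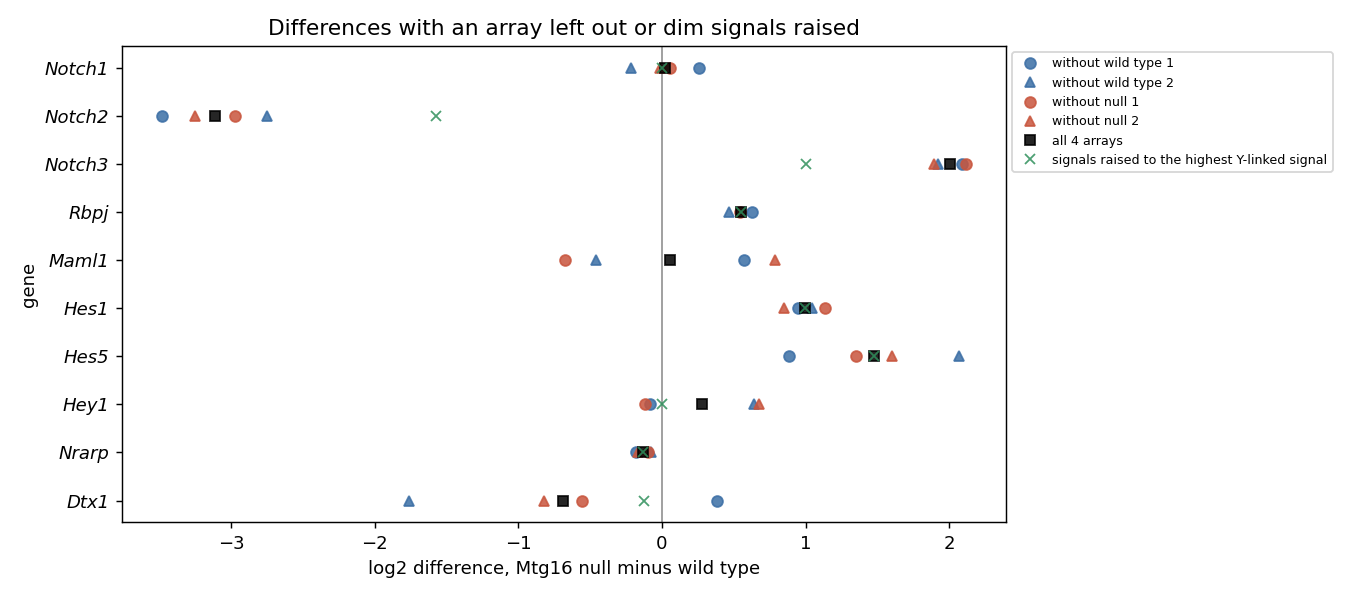
Log2 difference, Mtg16 null minus wild type (x axis), of each gene (y axis) with all 4 arrays (black), with 1 array left out (blue wild type, red null) and with signals raised to the highest Y-linked signal (green crosses; none for Maml1). Notch2, Notch3, Hes1, Hes5, Rbpj and Nrarp stayed on one side of 0 with any array left out, and Maml1, Hey1, Dtx1 and Notch1 did not.

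Other genes of the pathway were read from a list of 74, of which 53 had a probe with a single symbol and 39 were in the brighter 50%. By limma 0 of the 39 passed an adjusted p of 0.05, with 1 higher and 3 lower at an unadjusted p under 0.05, where 9.65% of the 8445 genes were higher and 6.83% lower. In the fit to all 13840 genes, 2 of the 53 were higher and 3 lower at an unadjusted limma p under 0.05. Of all genes 6.24% were higher and 4.69% lower in that fit. In both lots 6 of the 53 were at least 0.5 higher and 6 at least 0.5 lower, near the background of 9.42% and 7.66%. The list's median log2 difference was -0.01, as for all genes.

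Mfng, which encodes the fringe glycosyltransferase that tunes the receptors' response to ligands, had the lowest p of the list. It read 31040 and 30914 units in wild type and 68296 on both null arrays, whose equal values come from an equal rank in normalized data. Its log2 difference was 1.14 in each lot (SE 0.16, limma adjusted p = 0.0975). It passed when the brighter 25% of probes were kept (adjusted p = 0.0213) and with a variance trend (0.0201). The other fringe gene measured, Rfng, read 1601 and 504 units in wild type and 1806 and 1683 in the null arrays, a difference carried by 1 low wild type array.

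Among the proteases that cut the receptors, Psen2, a catalytic presenilin of gamma-secretase, read 41523 and 30230 units in wild type and 21341 and 16152 in the null arrays. The log2 difference was -0.93 (SE 0.27, limma adjusted p = 0.232), -0.96 in lot 1 and -0.90 in lot 2. Aph1b, another subunit, was 0.83 and 0.78 higher in the 2 lots, but it followed the lot more than the genotype, at 124 and 563 units in wild type and 221 and 969 in the null arrays. The other subunits had differences of 0.42 for Ncstn, 0.13 for Psenen and -0.04 for Aph1a, and the ectodomain proteases Adam10 and Adam17 had 0.20 and -0.16.

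No ligand other than Dlk1, a non-canonical one, had a difference of at least 0.5 in the same direction in both lots. Dlk1 read 262 and 71.6 units in wild type and 477 and 120 in the null arrays. Only its null signal in lot 1 lay above the background range. The receptor Notch4 read 257 and 268 units in wild type and 401 and 387 in the null arrays, 0.58 on the log2 scale (limma adjusted p = 0.47), with both wild type signals in the background range.

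Dtx3, a ubiquitin ligase related to Dtx1, read 12110 and 8881 units in wild type and 7536 and 5794 in the null arrays (-0.65, limma adjusted p = 0.35). Cir1, a corepressor that binds RBPJ, read 17513 and 15589 units in wild type and 11938 and 9821 in the null arrays (-0.61, limma adjusted p = 0.27). The genotypes did not overlap in either gene. The corepressor genes Hdac1, Hdac2 and Sin3a differed by 0.10, 0.10 and 0.02. The median log2 difference of the 9 corepressor genes with a probe, Cir1 among them, was -0.22.

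Of the HES and HEY genes outside the 10, Hes7 differed by -0.75 in lot 1 and -0.78 in lot 2. It read 2402 and 1112 units in wild type and 1426 and 647 in the null arrays, so the genotypes overlapped. The SE of the fit was 0.58 and the limma adjusted p 0.62. Hey2 differed by 1.11 and 0.58 in the 2 lots, with all 4 of its signals in the background range. Hes2 read 5845 on both wild type arrays and 6298 and 5807 in the null arrays, a difference of 0.05. Among Notch targets of blood cells, Tox, a nuclear factor of T cell development, read 378 and 173 units in wild type and 1815 and 350 in the null arrays, with null array 1 far above the rest. Trib2, a pseudokinase gene that Notch induces in leukaemia, read 770 and 825 units in wild type and 362 and 463 in the null arrays, a log2 difference of -0.96 (limma adjusted p = 0.148) with no overlap. Ptcra, a Notch target of early T cells, read 165 to 231 units, with all 4 signals in the background range. Myc, a growth regulator that Notch induces in T cell precursors, differed by 0.48 (limma adjusted p = 0.378), and Gata3, a T lineage factor, by -0.46 (0.441).

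**Figure D4:**
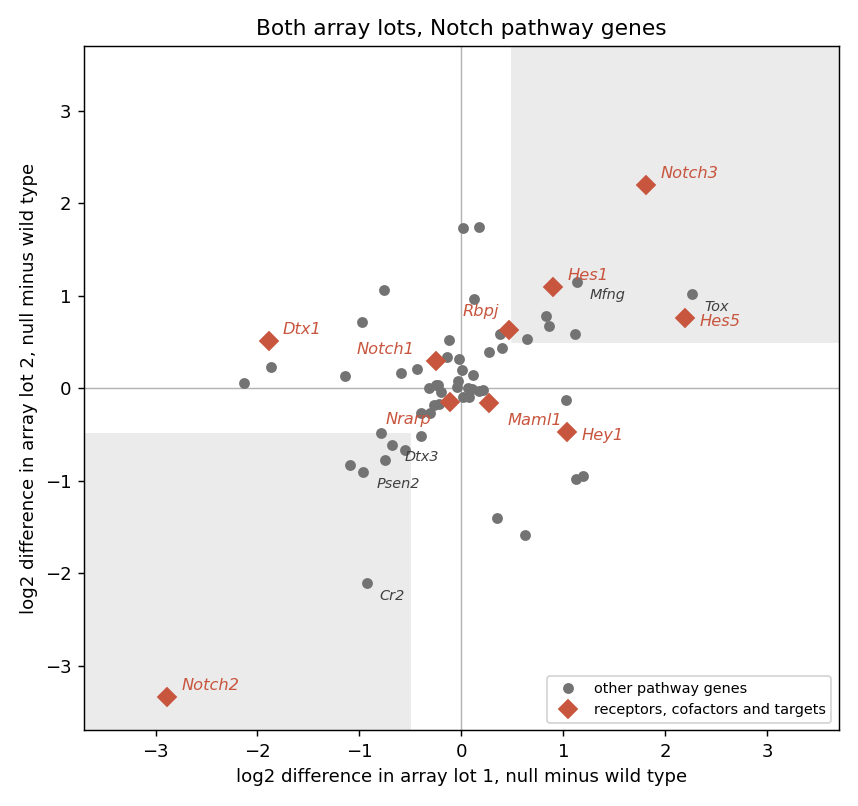
Log2 difference, Mtg16 null minus wild type, in array lot 1 (x axis) and lot 2 (y axis). Red diamonds are the 10 receptors, cofactors and targets and grey points the 53 other pathway genes; shading marks at least 0.5 in one direction in both lots, which held 4 of the 10 and 12 of the 53.

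Markers of several cell types differed between the genotypes as well, and in a whole tissue fraction fewer cells of a type and less RNA per cell cannot be told apart. Late neutrophil markers were at least 0.5 lower in both lots for 10 of 10 genes, with a summed signal of 1335940 and 1451280 units in wild type and 154609 and 144275 in the null arrays. Early granulocyte markers were higher for 6 of 7, erythroid markers lower for 6 of 7, and megakaryocyte markers higher for 4 and lower for 1 of 6. Markers of monocytes and macrophages were higher for 4 of 4, and of stem and multipotent cells for 2 of 6. By the same measure 9.42% of all genes were higher and 7.66% lower. Whether these marker differences have a part in the Hes1, Hes5, Rbpj, Notch2 or Notch3 values was not tested.

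Notch2 is a receptor of B cells, and the B lineage markers differed among themselves. Of the 8 genes of that list with a probe, 4 were at least 0.5 higher in both lots and 2 lower. The shares of all genes were 9.42% and 7.66%. The list's summed signal was 41263 and 33866 units in wild type and 81242 and 72313 in the null arrays. The 2 lower genes mark mature B cells. Ms4a1, which encodes the CD20 antigen, read 1444 and 1767 units in wild type and 68.0 and 143 in the null arrays. Cr2, a complement receptor that is also a Notch2 target of marginal zone B cells and is in the Notch list too, read 242 and 523 units in wild type and 127 and 121 in the null arrays. The 4 higher genes were Cd79b, Ebf1, Vpreb1 and Vpreb3, which are on from early B cell stages. Vpreb1 read 5341 and 5079 units in wild type and 17998 and 14149 in the null arrays. Lower signals in the null arrays were thus shared by Notch2 with Ms4a1 and Cr2, and also with the late neutrophil and most erythroid markers given above, and the part of any of these cells in its value was not tested.

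**Figure D5:**
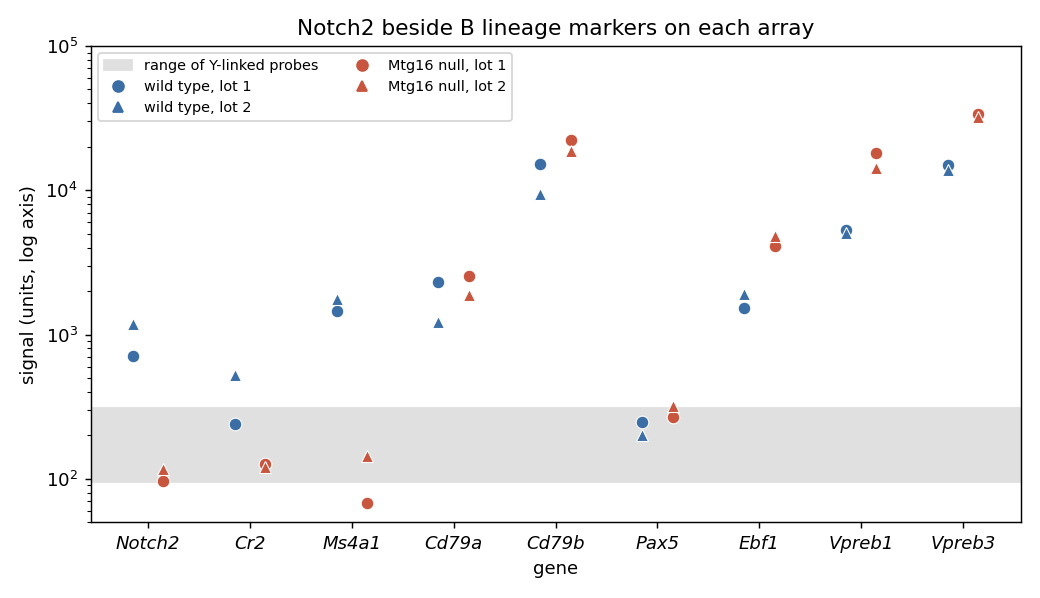
Signal in units on a log axis (y axis) of Notch2 and of the 8 B lineage markers with a probe (x axis), 1 point per array: blue wild type, red Mtg16 null, circles lot 1, triangles lot 2. The grey band spans the Y-linked probes, 94.5 to 310 units, in which Notch2 and Cr2 lie in both null arrays.

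For Notch3 the list of endothelium and stroma had 4 of 13 genes higher and 3 lower in both lots. Of all genes 9.42% were higher and 7.66% lower by this measure. The list's summed signal was 20320 and 22816 units in wild type and 28444 and 30850 in the null arrays. The higher genes were Tek, Esam, Kdr and Pecam1, with log2 differences of 1.94, 1.16, 1.16 and 0.95. The lower ones were Cdh5, Col1a1 and Acta2, with -1.37, -0.76 and -1.07. Cdh5 read 282 and 390 units in wild type and 59.0 and 216 in the null arrays. Of these signals only that of wild type array 2 lay above the background range. Tek read 184 and 263 units in wild type and 737 and 967 in the null arrays, so that its wild type level lay in the background range as that of Notch3 did. Of the mural cell markers, Pdgfrb read 725 and 816 units in wild type and 244 and 770 in the null arrays, and Acta2 and Rgs5 lay near or within the background range, at 53.6 to 233 and 166 to 323 units. The part of vessel cells in the Notch3 value was not tested. In both lots 3 of 9 genes of the T and natural killer cell list were higher and 0 lower (all genes, 9.42% and 7.66%). Its summed signal was 71934 and 75040 units in wild type and 245320 and 215237 in the null arrays, most of it Nkg7, which read 66360 and 66507 units in wild type and 237264 and 206814 in the null arrays. The other 2 higher genes were Zap70, a kinase of T cell receptor signalling, at 675 and 822 units in wild type and 1097 and 1305 in the null arrays, and Klrb1c, the NK1.1 antigen gene, at 350 and 374 against 959 and 962 units. Cd3d, Cd3e, Cd3g and Cd5 had overlapping groups. The part of these cells in the Notch3 value was not tested.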

How the data were processed

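Single-colour Applied Biosystems arrays were hybridised with digoxigenin-labelled cRNA, per the labels' protocols. The authors deposited linear probe intensity, already quantile normalized: once sorted, the 4 arrays agreed within 0.286%. For scanner software, background correction and detection calls, the sources used here give nothing.

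Of 33012 probes, 14411 had 1 gene symbol, 247 several and 18354 none. Signals under the 1st percentile (75.8 units) were raised to it, log2 was taken, the brighter 50% of probes (16506) were kept, and the brightest probe stood for a gene, giving 8445 genes. Genotype was the only term in limma 3.58.1 (R 4.3.3; 2 residual and 2.11 prior degrees of freedom), with Benjamini-Hochberg adjustment over all genes tested and a threshold of 0.05. Genes that did not pass the brightness filter, among the 10 and in the lists, were read from the same fit to 13840 genes. The fit was also run on simulated data with equal spread for all genes and no lot effect, which is simpler than these data. Figures used matplotlib 3.10.9 in Python 3.11.15.

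The series text gives the replicate number as the array lot, so equal numbers pair arrays; deviations from the group means correlated at r = 0.50 between the arrays of a lot (over genes, 8445). All 10 genes are named. From the pathway list the rule took genes past the test and, per role, the gene with the largest difference of at least 0.5 in both lots in each direction; Rfng, Ncstn, Psenen, Aph1a, Adam10, Adam17, Hdac1, Hdac2, Sin3a, Hes2, Trib2, Ptcra, Myc, Gata3 and the single marker genes were chosen after their values were seen. The 10 genes, the lists and the tests were chosen with earlier results of these data known. Alternatives were the lot as a block, brightness filters, floors, normalization, probe averaging, a variance trend and each array left out.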

Additional observations from a re-analysis of the deposited data

How the results depend on the processing

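The number of all genes past limma's adjusted p of 0.05 was 10, against 0 with the array lot as a replicate block (lowest adjusted p 0.113, and 2054 genes by the unadjusted p of 0.05), 0 when dim probes were kept (1512 by the unadjusted p), 295 with the brighter 25% of probes, 295 with a variance trend, and 0 to 0 with an array left out; it stayed within 10 to 11 under the other settings. The count among the 10 Notch genes was 0 under every one of these settings, with 1 to 4 of those kept at an unadjusted p under 0.05 (2 with the block). With the brighter 25% of probes only Nrarp and Rbpj of the 10 were kept, so Hes1, Hes5 and the rest were not tested there. The block changed no call for a single Notch gene. Outside the filter, Notch2 passed with a variance trend (0.0482). The pathway list gave 1 call (Mfng) with the brighter 25% and 1 with a variance trend, and 0 under the other settings with the main filter; without that filter Mfng also passed with the floor at the highest Y-linked signal (adjusted p = 0.0276). With an array left out the sign turned for Notch1 (-0.22 to 0.26), Hey1 (-0.12 to 0.68), Dtx1 (-1.76 to 0.38) and Maml1 (-0.67 to 0.79); the cause was not tested. Maml1 gave no value with the floor at the highest Y-linked signal, nor did the genes other than Nrarp and Rbpj with the brighter 25%. Signal over background limits Notch1, Hey1 and Dtx1 on nearly all arrays, Notch2 in null and Notch3 in wild type arrays, and Maml1 in lot 2.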
